A study of Mus musculus with 2 samples.

Results

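The genes described here are the receptors, bridging proteins and adaptors with which macrophages bind and take up apoptotic cells. They are Mertk, Axl, Tyro3, Gas6, Pros1, Mfge8, Timd4, Tgm2, Elmo1 and Gulp1, taken by name, with earlier results of these data already known, and every non-control probe that the array design assigns to one of these names is reported. That gave 10 genes and 20 probes, of 36921 gene names and 56351 probes in all. RNA came from macrophages of the peritoneal cavity of MeXis null mice and of WT mice. MeXis is a long noncoding RNA gene beside Abca1, studied here for its part in cholesterol efflux. Mice of both genotypes were labelled bl6, both cell preparations were kept in DMEM with serum and antibiotic, and no ligand or other treatment is named. Each genotype was a pool of 3 samples hybridised to 1 one-colour Agilent array, so the genotypes have no replicates and nothing could be tested between them.

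Uptake of dying cells, or efferocytosis, starts when phosphatidylserine appears on the outer face of the dying cell. Tyro3, Axl and Mertk, together the TAM receptor tyrosine kinases, do not bind it themselves but through the soluble proteins Gas6 and protein S (Pros1), while Mfge8 links it to integrins and Timd4 (Tim-4) binds it directly. Elmo1 acts with Dock proteins to activate Rac and drive engulfment, and Gulp1 is an adaptor that binds the tails of engulfment receptors. Engulfed cells bring a load of cholesterol, which activates the LXR nuclear receptors, and Mertk and Tgm2 are known LXR targets in macrophages.

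The probe of each gene that the results rest on is given below, with both Axl probes, because a gene is read here only through a stretch of its transcript. The first 30 of the 60 bases are printed 5′ to 3′ in lower case as the files give them, with the position and strand of the whole probe on mm9. The Timd4 probe and 5 other probes at background on both arrays are not shown. Also not shown are the dimmer probes of Pros1 and Elmo1 that were above background on both arrays.
Mertk A_51_P366138, chr2:128627867-128627926, plus strand: agcaccaggtgaaagctgtcaagtcaggtt
Axl A_66_P119852, chr7:26542335-26542394, minus strand: gggccatgttgccccttgagccagtcccct
Axl A_65_P08024, chr7:26545782-26545841, minus strand: gaacagtgagatttacgactacctgcgtca
Tyro3 A_55_P2038247, chr2:119643759-119643818, plus strand: gcaggctcttgctgttaggaacatttctaa
Gas6 A_51_P172054, chr8:13465444-13465503, minus strand: tgggctagaggggctggcagtttgcagcag
Pros1 A_55_P2801083, chr16:62929001-62929060, plus strand: atatttgatgatagtgcattgcaagtggct
Mfge8 A_51_P255682, chr7:86278689-86278748, minus strand: ctctgggtggttgacaggttggctgtggga
Tgm2 A_52_P220879, chr2:157942275-157942334, minus strand: ctgggaagaatcaaactgatgcatttaacg
Elmo1 A_55_P2716336, chr13:20684119-20684178, plus strand: caacatgctcatgttgatctaaacatagca
Gulp1 A_51_P381218, chr1:44853507-44853565, plus strand: ttaatggtgacctgtccctgctactggcat

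All differences below are on the log2 scale, MeXis null minus WT, after each array's processed signal was divided by its 75th percentile among the probes detected on both, which was 3723 on MeXis null and 3535 on WT. Of 59305 non-control spots 44.3% on MeXis null and 48.0% on WT were well above background. The probe for MeXis itself, listed in the files as AI427809, gave a signal of 8.44 on MeXis null and 12.3 on WT and was above background on neither array, so it checks nothing about the labels. Slide and scan day were shared by the arrays. On these arrays 285 probes were printed at least 5 times per array, and the difference between the arrays had a median SD of 0.47 among spots of the same probe. From this a limit of 0.91, or 1.88-fold, was taken for a gene read from 1 spot, and few of these repeated probes were dim, with 9 of 285 under a signal of 500 on WT. Over the 15474 genes above background on both arrays the median difference was 0.05, with quartiles of -0.34 and 0.45.

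Among the uptake genes, Mertk, Axl and Tgm2 were lower in MeXis null by more than the limit of the spot spread, Tyro3 and Gulp1 were higher by more than it, and Elmo1 was lower within it. Gas6, Pros1 and Mfge8, the soluble proteins, all lay within 1.5-fold. Timd4 was not detected on either array. In counts, 9 of the 10 genes were above background on both arrays. Of these, 4 were at least 1.5-fold lower and beyond the 95% limits of the scanner error, 44.4% against 13.6% of all genes, and 2 were higher, 22.2% against 18.9%. At the limit of 0.91, 3 were lower, 33.3% against 5.72% of all genes, and 2 were higher, 22.2% against 9.41%. The median of the 9 genes was -0.10.

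**Figure D1:**
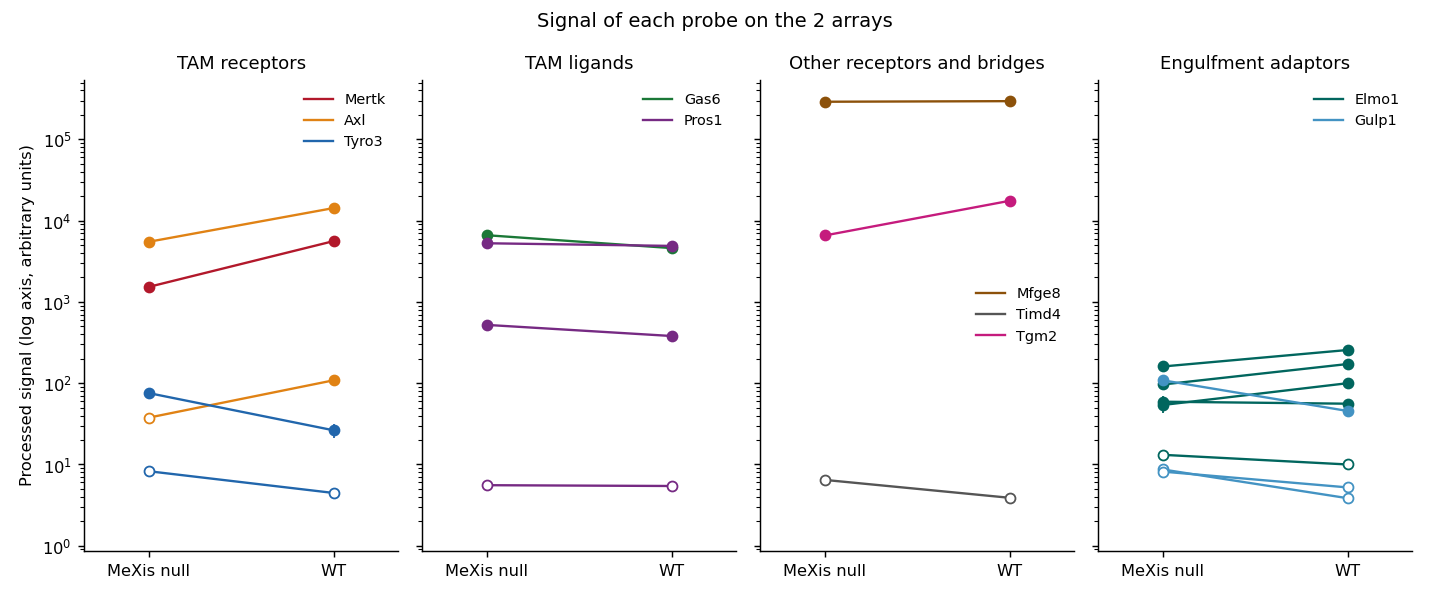
Processed signal of each of the 20 probes (log axis, arbitrary units) on the MeXis null array, left in each panel, and the WT array, right. Each line is a probe, filled points are well above background and carry the scanner error, often smaller than the point, and open points are not well above background. The lines of Mertk, of both Axl probes and of Tgm2 lie lower on MeXis null, and those of Tyro3 and Gulp1 lie higher.

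Mertk, the TAM receptor with the main part in uptake by resident macrophages, gave a processed signal of 1533 ± 153 on MeXis null and 5608 ± 561 on WT (± here and below is the scanner error of a single array, from pixels and background, and not a spread between samples). Mertk was thereby 3.85-fold lower in MeXis null, with a difference of -1.95 and a scanner error of 0.20. In bulk RNA fewer cells of a type and less RNA per cell cannot be told apart. Of the 15474 genes, 57 (0.368%) had a lower difference. Mertk had 1 probe, so no other spot on these arrays repeats the measurement. The unprocessed mean pixel intensities of the spot were 1394 on MeXis null, over a local background of 20.0, and 7033 on WT, over 23.0.

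The spot of Mertk stood in an area where other genes were also lower in MeXis null. The 100 nearest spots above background on both arrays had a median difference of -0.79, with quartiles of -1.24 and -0.18, and 1 of them was lower than Mertk. Among these neighbours were 10 spots of repeated probes, which show the area apart from the gene they read. They differed from the other spots of their own probe by a median of -0.66, and 8 of the 10 lay below 0. Mertk less that deviation was -1.29. Among the 400 nearest spots, 46 were of repeated probes, and Mertk less their deviation was -1.51. With the 25 nearest it was -1.48, from only 2 such spots. Subtracting the median of the 100 neighbours left -1.16, that of the 400 nearest -1.50, and that of the 25 nearest -0.58, which no longer passed 1.5-fold. Mertk was lower in MeXis null under all 3 neighbourhood sizes, by an amount that depended on the size and on which neighbours were used.

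Axl, the TAM receptor that binds Gas6 rather than protein S, had 2 probes, and both were lower in MeXis null. The brighter one gave 5500 ± 550 on MeXis null and 14303 ± 1430 on WT. That is 2.74-fold lower, a difference of -1.45 with a scanner error of 0.20, and 225 genes (1.45%) had a lower difference. Its mean pixel intensities were 7446 on MeXis null and 15093 on WT, 2.03-fold apart and a narrower gap than in the processed signal. Normexp on those intensities gave -1.09. The second probe gave 37.7 ± 9.67 on MeXis null, not well above background, and 109 ± 11.3 on WT. Its difference was -1.60, or 3.03-fold, with a scanner error of 0.40. That size is an estimate and not a lower limit, because it uses the signal on MeXis null that was not well above background. The probes lie in different places on the array, and the 100 spots nearest to the brighter one had a median of -0.01, with 0 of them lower than Axl. The 10 repeated spots among them deviated by a median of -0.07. After the local correction both probes stood at -1.44.

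Tyro3 was the only one of the 3 TAM receptors that was higher in MeXis null. Its probe gave 75.5 ± 9.51 on MeXis null and 26.3 ± 4.85 on WT, 2.73-fold higher, a difference of 1.45 with a scanner error of 0.32. Of all genes 97.7% had a lower difference. The WT signal was close to the lowest of any spot called well above background on that array, 12.1. On MeXis null that lowest signal was 27.3, more than the 26.3 of Tyro3 on WT. With such unequal floors, a gene this dim is counted on both arrays more readily when it is higher on MeXis null. That limit holds for the other dim genes counted below as well. A second Tyro3 probe gave 8.25 on MeXis null and 4.46 on WT and was above background on neither. Dim genes were more often called higher: in the tercile of genes with the lowest mean signal, 24.7 to 294, 23.5% were called higher and 12.3% lower, against 14.4% higher and 13.6% lower in the tercile with the highest signal. The local correction left Tyro3 at 1.23, while normexp background correction gave 0.80, inside the limit of the spot spread. Normexp was run with an offset of 50 added to every signal. That offset by itself narrows a difference between signals this dim, so the 0.80 does not measure stability.

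**Figure D2:**
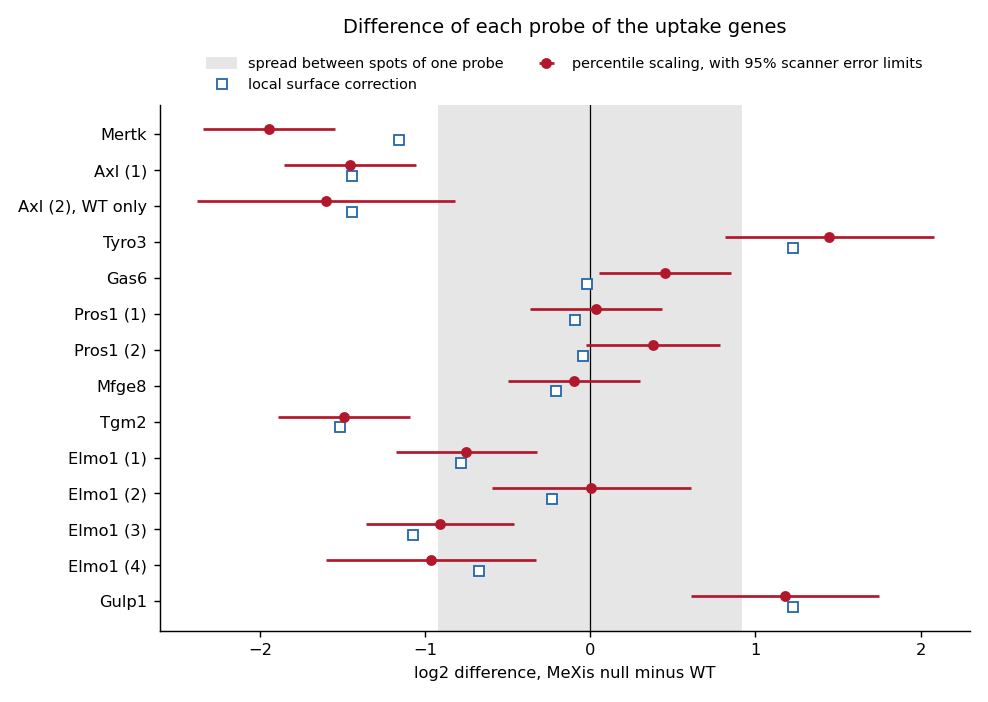
Difference of each probe above background on at least 1 array (log2, MeXis null minus WT, horizontal axis), 1 row per probe, with numbers in brackets for genes read by several probes. Red points carry bars of the 95% scanner error limits, blue squares are the local surface correction with 100 neighbours, and the grey band is the limit of 0.91 on either side of 0. Under the correction Mertk stands at -1.16, against -1.95 without it, and Gas6 at -0.02, against 0.45. Mertk, Axl, Tyro3, Tgm2 and Gulp1 all stay outside the band. The band is the limit without the correction, and the limit with it was 0.64.

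Neither TAM ligand differed by 1.5-fold. Gas6, which binds all 3 TAM receptors, gave 6619 ± 662 on MeXis null and 4597 ± 460 on WT, 1.37-fold higher, a difference of 0.45 with a scanner error of 0.20. That difference equals the upper quartile of all genes. Its 100 nearest spots had a median of 0.47, so the local correction left -0.02. Pros1, protein S, which binds Mertk and Tyro3, gave 5271 ± 527 on MeXis null and 4891 ± 489 on WT on its brightest probe, a difference of 0.03. A second probe gave 522 ± 52.8 on MeXis null and 381 ± 38.4 on WT, a difference of 0.38 beside neighbours with a median of 0.42, and the third was at background on both arrays with 5.56 on MeXis null and 5.43 on WT. After the local correction the detected Pros1 probes stood at -0.09 and -0.04.

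Mfge8, or lactadherin, the bridge to the integrins, had a bright spot on both arrays, in the highest tercile of level. It gave 290669 ± 29067 on MeXis null and 295576 ± 29558 on WT, a difference of -0.10. Neither spot was saturated. Timd4, which marks embryonically derived resident macrophages of the mouse peritoneum, gave 6.45 on MeXis null and 3.89 on WT and was above background on neither array, so no fold is given.

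Tgm2, the transglutaminase that assists Mfge8 and the integrin in forming the phagocytic portal, gave 6580 ± 658 on MeXis null and 17566 ± 1757 on WT. It was 2.81-fold lower, a difference of -1.49 with a scanner error of 0.20, and 207 genes (1.34%) had a lower difference. Like Mertk it was read by 1 probe. Unlike the area around Mertk, the 100 spots nearest to Tgm2 had a median of 0.02, with 1 of them lower than Tgm2, and 16 repeated spots among them deviated by a median of -0.19. The local correction gave -1.51. Mean pixel intensities were 4890 on MeXis null and 19595 on WT, a wider gap than in the processed signal, and normexp on those intensities gave -2.07.

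**Figure D3:**
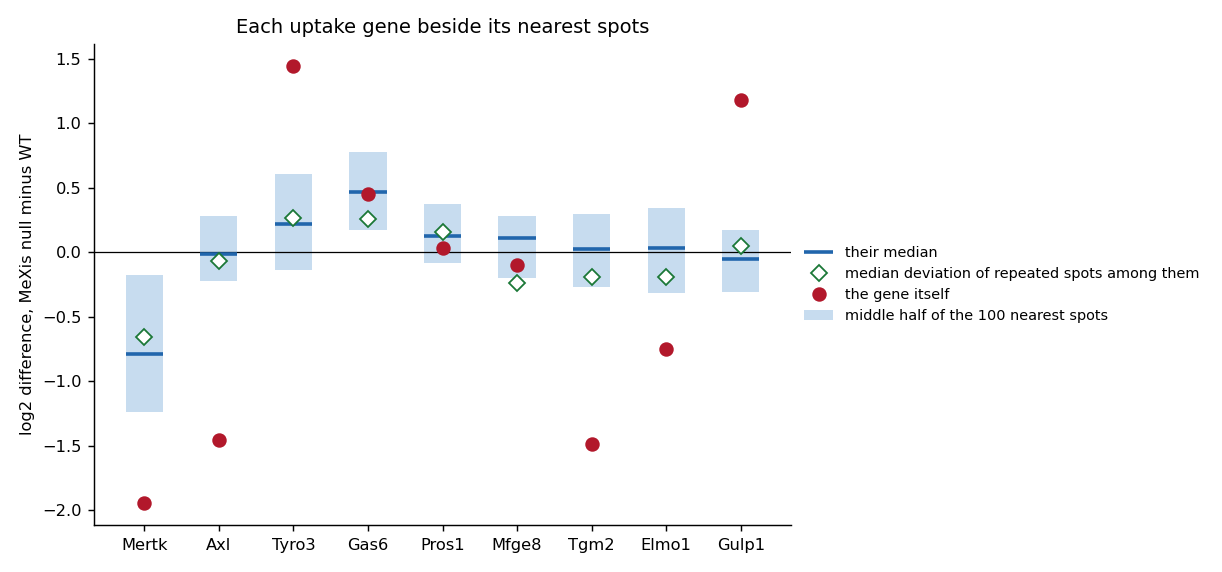
Difference of each uptake gene above background on both arrays (red point, log2, MeXis null minus WT) beside the 100 nearest spots above background on both arrays. The blue bar covers the middle 50% of those neighbours, the blue line is their median and the green diamond is the median deviation of repeated spots among them from their own probe elsewhere. Only for Mertk does the bar lie wholly below 0, and Gas6 lies at the median of its own neighbours.

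Elmo1, the partner of Dock proteins upstream of Rac, was read by 5 probes, of which 4 were above background on both arrays and 3 of those were lower in MeXis null. The brightest gave 161 ± 17.9 on MeXis null and 256 ± 26.0 on WT, 1.68-fold lower, a difference of -0.75 with a scanner error of 0.22. The next gave 96.4 ± 11.7 on MeXis null and 172 ± 17.7 on WT, a difference of -0.91. Another gave 53.9 ± 10.5 on MeXis null and 100 ± 11.4 on WT, a difference of -0.97. The fourth, A_52_P488572, gave 59.2 ± 10.2 on MeXis null and 55.9 ± 7.10 on WT, a difference of 0.01. Per the array design that probe matches NM_080288 alone, whereas the probes with -0.91 and -0.97 match NM_080288 and NM_198093. For the brightest probe, on which the call of Elmo1 rests, the design lists no RefSeq transcript. The local correction gave -0.78, -1.07, -0.67 and -0.23 in the same order of probes, and the fifth probe was at background with 13.1 on MeXis null and 9.99 on WT. The mean pixel intensities of the 3 lower probes, in the same order, were 1.33-, 1.48- and 1.38-fold lower on MeXis null. Each of these is under 1.5-fold, but they hold the local background and are not scaled. For the brightest probe that background was 46.0 on MeXis null and 22.0 on WT. These ratios are therefore not comparable with the 1.5-fold call.

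Gulp1, the adaptor named for its part in engulfment, gave 108 ± 13.6 on MeXis null and 45.5 ± 7.12 on WT, 2.26-fold higher, a difference of 1.18 with a scanner error of 0.29. Of all genes 95.2% had a lower difference, as had 100 of its 100 nearest spots. The local correction gave 1.23, and normexp gave 0.75, which is inside the limit of the spot spread. The normexp offset of 50 by itself narrows this dim difference too. The other Gulp1 probes were above background on neither array, with 8.67 and 8.16 on MeXis null and 3.84 and 5.22 on WT. Gulp1 and Tyro3, the uptake genes that were higher, were therefore both read from 1 dim spot, in the range where the repeated probes give little measure of the spread.

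**Figure D4:**
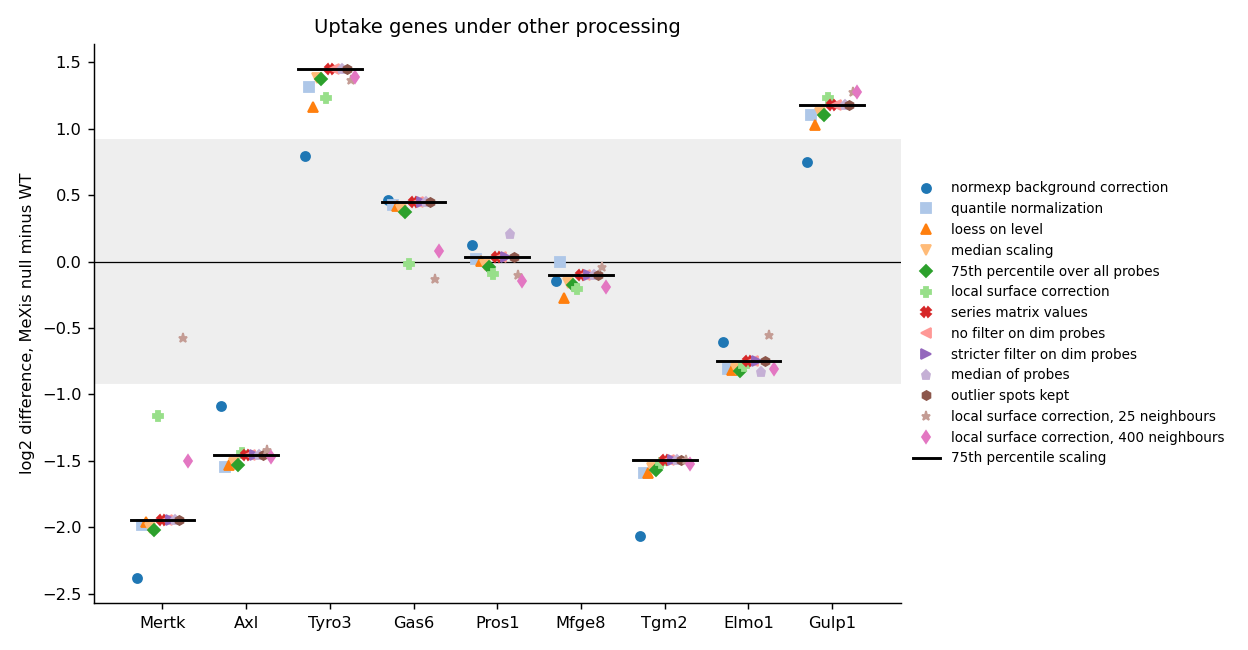
Difference of the 9 uptake genes above background on both arrays (log2, MeXis null minus WT, vertical axis) under 13 other settings, with a symbol for each. The black line is the value after 75th percentile scaling and the grey band the limit of 0.91 on either side of 0. Mertk ranges from -2.38 to -0.58, Tgm2 from -2.07 to -1.49 and Axl from -1.55 to -1.09.

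Promoter sequences were looked up because Mertk and Tgm2 are known LXR targets and Mertk, Axl and Tgm2 were lower in MeXis null. RefSeq promoters on GRCm38.p6 matched 9 of the 10 genes with 10 entries and left Tgm2 without one, so nothing below covers Tgm2, and the 250 bases before each start were searched on both strands. LXR binds with RXR to a pair of half-sites, in the ideal form AGGTCA repeated after a gap of 4 bases (the DR4 element). That pair was in 0 of the 10 entries and in 5 of 32851 promoters (0.0152%). The single half-site GGGTCA was in the Mertk promoter, and in 11.6% of all promoters. The other half-site, AGGTCA, was in the Timd4 promoter, and in 4607 of the 32851 promoters. The Mertk and Axl promoters follow as an example with a match and one without, with the match in capitals, where it reads TGACCC because it lies on the other strand. It starts 219 bases before the start of the gene. A match is a description of the letters in this window only.
Mertk promoter, GRCm38.p6 chr2:128698665-128698914, plus strand: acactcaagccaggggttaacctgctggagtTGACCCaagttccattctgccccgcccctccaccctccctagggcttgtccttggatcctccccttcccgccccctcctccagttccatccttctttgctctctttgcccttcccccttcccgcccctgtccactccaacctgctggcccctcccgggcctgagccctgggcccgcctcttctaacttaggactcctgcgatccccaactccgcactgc
Axl promoter, GRCm38.p6 chr7:25788734-25788983, minus strand: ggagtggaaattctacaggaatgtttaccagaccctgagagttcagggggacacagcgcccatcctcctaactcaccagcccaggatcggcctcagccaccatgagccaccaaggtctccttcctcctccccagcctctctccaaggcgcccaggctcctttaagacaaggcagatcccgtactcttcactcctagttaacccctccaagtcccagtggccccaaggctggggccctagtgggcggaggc

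The wider uptake pathway did not lean to the lower side. Of 108 other genes sorted by role, 106 had a usable probe, and Cd36 and Calr were lost because the software had marked their spots as outliers. Above background on both arrays were 89, of which 15 were higher (16.9% against 18.9% of all genes) and 11 lower (12.4% against 13.6%). Both shares lie near those of all genes, and the counts by role and by marker list that follow are to be read beside the same 18.9% and 13.6%, since most of those lists hold fewer than 20 genes. Their median was 0.13, or 0.00 after the local correction. Another 3 were above background on WT alone and 14 on neither array.

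Of the 20 other receptors measured, 4 were higher and 3 lower; the median was 0.30. Stab1 and Stab2, both stabilins that bind phosphatidylserine, lay at opposite ends. Stab1 gave 1777 on MeXis null and 712 on WT, a difference of 1.24, and Stab2 gave 212 on MeXis null and 468 on WT, a difference of -1.22. Cd14, a tethering receptor, stood at 0.86. Scarb1, a scavenger receptor, stood at -1.27 on its brightest probe, but its other probe had the opposite sign. Among 9 bridging proteins and opsonins 3 were higher (33.3%, against 18.9% of all genes) and 0 lower (against 13.6%). Anxa1, annexin A1, gave 109996 on MeXis null and 37620 on WT, a difference of 1.47, and C1qa, a chain of complement C1q, stood at 1.04. The lowest were Tulp1 at -0.31 and C4b at 0.07.

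In the engulfment machinery, 17 genes in all, 3 were higher and 2 lower, around a median of -0.21. Elmo3, a relative of Elmo1, stood at 1.02 and at 0.39 after the local correction. Rac1, the GTPase that Elmo and Dock proteins activate, stood at 0.73, and Vav1, another activator of Rac proteins, at -0.96. Abca1, the cholesterol transporter and the target the study is about, is also tied to uptake of dying cells. It gave 1478 on MeXis null and 4339 on WT, 3.09-fold lower, a difference of -1.63, or -1.58 after the local correction. That is between the values of Mertk and Tgm2 before the correction.

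Of 10 genes of find-me and do-not-eat-me signals 0 were higher and 3 lower. S1pr1, a receptor for sphingosine 1-phosphate, stood at -0.91 and the scramblase Xkr8 at -0.63, which the local correction reduced to -0.22. Panx1, a channel that releases nucleotides, stood at 0.55 and the nucleotide receptor P2ry6 at 0.43 with probes of opposite sign. After the local correction Panx1 stood at 0.24 and P2ry6 at 0.42. Of 17 phagosome genes 3 were higher and 0 lower. Map1lc3b, an LC3 protein, stood at 1.14 but at 0.31 after the local correction and with disagreeing probes, and the lysosomal membrane protein Lamp1 stood at 1.12 and then 0.76. Rubcn and Atg12, which act in LC3-associated phagocytosis, stood at -0.42 and -0.38, and at -0.09 and -0.30 after the local correction.

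Among 13 genes that process or regulate the receptors 1 was higher and 3 lower. Nr1h3, which encodes LXR alpha, stood at -0.81 and at -0.52 after the local correction. Adam17, the protease that sheds Mertk from the cell surface, stood at 0.78 with disagreeing probes, and Ppard, a nuclear receptor of lipid sensing, at 0.54. The local correction left Adam17 at 0.58 and Ppard at -0.05. Of the other transglutaminases 3 of 8 were above background on both arrays. F13a1, the A chain of factor XIII, stood at 1.09, Tgm1 at 0.41 and Tgm3 at -0.23, so none of the 3 was lower by 1.5-fold as Tgm2 was. The local correction gave 0.64, -0.02 and -0.01 in that order.

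**Figure D5:**
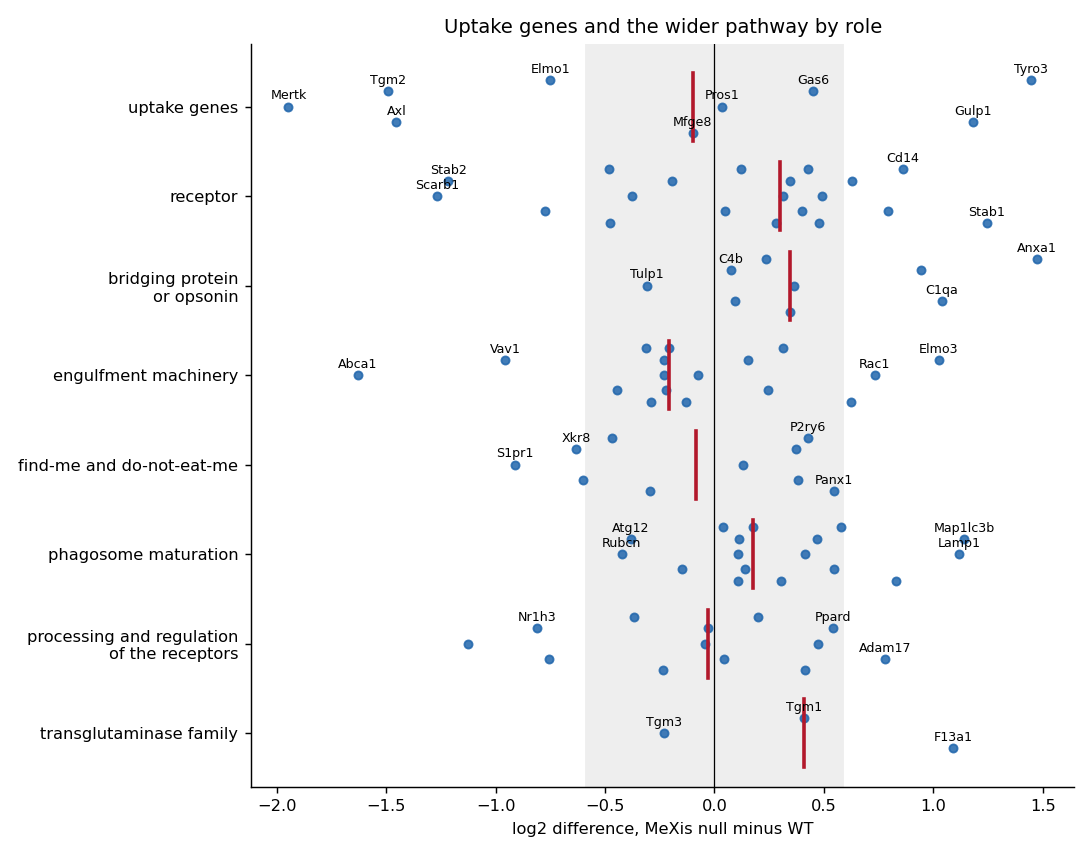
Difference of each gene above background on both arrays (log2, MeXis null minus WT, horizontal axis) by role, with the 9 uptake genes in the top row. Red lines are the median of each role and the grey band is 1.5-fold in either direction, and outside the top row the 2 highest and 2 lowest genes are named, except for 1 lowest gene that is not reported. Of the wider pathway, Abca1 is furthest to the left, at -1.63, and Anxa1 furthest to the right, at 1.47.

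Markers of the labelled cells and of other cells that a peritoneal preparation can hold differed between the arrays too, where 18.9% of all genes were higher and 13.6% lower. Of 10 macrophage markers 9 were above background on both arrays and Cd163 was on neither. Higher were 3 of these and lower 3, and their summed scaled signal was 123 on MeXis null and 86.6 on WT. Their median difference was 0.43, but -0.09 after the local correction, and some of them had probes of opposite sign. Of 10 markers of large peritoneal macrophages 8 were above background on both arrays, with 3 higher and 3 lower. Those higher were F10 at 1.17, Vsig4 at 0.96 and Gata6, the factor that defines these cells, at 0.64, and those lower were Rarb at -1.30, Naip1 at -0.69 and Cd5l at -0.65. Selp and F5 were above background on neither array. Fibroblast markers were higher in 6 of 9 and lower in 0, with a summed scaled signal of 3.70 on MeXis null and 2.19 on WT, while Lum was detected on WT alone, with 40.3 on MeXis null and 131 on WT, and Dpt and Mfap5 on neither array. Mesothelial markers were higher in 5 of 8 and lower in 0, with 0.636 on MeXis null and 0.280 on WT. B cell markers were lower in 4 of 7 and higher in 0, with 0.688 on MeXis null and 1.11 on WT, while Pax5 was detected on WT alone and Blk and Fcer2a on neither array. Of 7 eosinophil markers Siglecf alone was detected on both arrays, and was called lower at -0.73, while Ear1, Ear2 and Il5ra passed background on WT alone. Ear1 gave 28.6 on MeXis null and 376 on WT, and Ear2 gave 34.3 on MeXis null and 1475 on WT. Il5ra hardly differed, with 21.2 on MeXis null and 24.3 on WT. T and NK cell markers were higher in 1 of 4 and lower in 1, and neutrophil markers higher in 0 of 4 and lower in 1. The part of these cells in the differences of Axl, Tyro3, Gas6, Tgm2 and Gulp1, which cells other than macrophages can also express, was not tested.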

How the data were processed

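Total RNA of peritoneal macrophages, 1 pool of 3 samples per genotype, was labelled with Cy3 and read on 1 array each. Spot intensity in the deposited scanner files came from Agilent Feature Extraction, version 11.5.1.1 in the file headers. That software subtracted background and gave an error per signal. Its processed signal was not the mean pixel intensity less the local background alone. For Tgm2 on MeXis null it was 6580, above the mean pixel intensity of 4890 over a local background of 20.0. What else the software did to the signal was not examined. On each array all 62976 values of the deposited series matrix were the same as that signal (medians 17.0 on MeXis null and 12.9 on WT), so it is linear and not centred; 0 of its columns had no sample. Log2 signals were scaled to the 75th percentile of probes above background on both arrays. Control spots and outlier spots (205 on MeXis null, 305 on WT) were left out, and 0 were saturated. Spots of a probe were averaged, and a gene was read from its brightest probe. Of 59305 spots, 34168 were named by accession, 10345 by symbol and 519 by synonym in RefSeq, and 14273 kept the name in the files. A gene was called at 1.5-fold beyond the 95% limits of the scanner error, and the scanner error does not cover differences between samples. The number of arrays limits the precision. Named were all 10 uptake genes, the 2 highest and 2 lowest of each of 7 roles, and Abca1, except that the value of 1 gene this rule names is not reported here; Stab1 to F13a1 follow that rule, while Cd36, Calr and single markers were named for their detection, and the called markers of large peritoneal macrophages after their values were seen. Members and lists were chosen with earlier results of these data known. Other settings numbered 13, and 2 were added after seeing the data, the correction with 25 and with 400 neighbours. Steps were tested on simulated data. Tools were R 4.3.3, limma 3.58.1, Python 3.11.15, numpy 2.4.6 and pandas 2.3.3.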

Additional observations from a re-analysis of the deposited data

How the results depend on the processing

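No test of the genotype was possible with 1 array each, and the counts say how many genes lay past a fold. The number of uptake genes higher was 0 under a stricter filter on dim probes, because Tyro3 and Gulp1 did not pass it, and the median of the 7 uptake genes left was -0.75. The number lower was 2, Axl and Tgm2, after the local surface correction with 25 neighbours, where Mertk stood at -0.58 and Elmo1 at -0.56; the cause was not tested. At a 2-fold threshold 4 genes of the wider pathway were lower and 7 higher, since that threshold is wider. Of the other 81 counts and medians none moved by more than the limits set. Single genes moved in 6 cases and did not in 109: Mertk to -1.16 and -0.58 and Gas6 to -0.02 and -0.13 under the local correction with 100 and 25 neighbours, and Tyro3 to 0.80 and Tgm2 to -2.07 under normexp. Many of the 109 could not have moved. The series matrix holds the same signals, the uptake genes had 0 outlier spots, and a filter on dim probes only keeps or drops a gene. The median of probes likewise cannot change a gene with 1 detected probe. Those cases say nothing about stability. Nor does the move of Tyro3 under normexp, since its offset of 50 by itself narrows the difference of a dim gene. With no filter on dim probes the median of all genes was 0.47, as dim spots enter, while the other scalings left it between -0.04 and 0.08. The 6 uptake genes that passed the call kept their sign under every setting that measured them; single genes of the wider pathway were not rerun. No paired analysis was possible because each genotype has 1 array. Among spots of one probe the local correction lowered the SD of the difference to 0.33 from 0.47.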
